A study of Homo sapiens with 18 samples.

Results

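Epithelial cells are joined to their neighbours by adherens junctions, desmosomes and tight junctions, and 41 genes for the proteins of these junctions were examined in MCF10A, a non-tumorigenic human mammary epithelial line. The genes were taken by name, 10 for adherens junctions, 15 for desmosomes and 16 for tight junctions, out of 19401 genes listed over the 3 deposited tables. The list held 43 names, because NECTIN1 and NECTIN4 stand in the tables under their older symbols PVRL1 and PVRL4. The study made RNA-seq libraries from 5 groups of untreated MCF10A cells: CBFB KO (n = 3) with CBFB WT (n = 3), and RUNX1 KO1 (n = 4) and RUNX1 KO2 (n = 4) with RUNX1 WT (n = 4). The CBFB KO group came from 1 knockout clone made with CRISPR-Cas9 and the RUNX1 KO groups from 2 clones, so a clone and its knockout cannot be told apart within the CBFB KO group, and labels do not say which clone is KO1. RUNX1 is a DNA-binding transcription factor, and CBFB is its partner subunit, which strengthens the binding.

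In an adherens junction, classical cadherins reach across to the neighbouring cell and are tied inside to actin filaments by the catenins, while nectins form a parallel adhesion system. In a desmosome, desmogleins and desmocollins make the bond, and plakoglobin, plakophilins and desmoplakin link it to keratin filaments. Tight junctions lie closest to the apical surface, where claudins and occludin seal the space between cells and cytoplasmic scaffolds of the ZO family hold them in place. P-cadherin is known as a cadherin of the basal layer of mammary epithelium.

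The measurement behind each value was the mean normalized count of a gene over all libraries of a table, knockout and WT together, as the authors computed it. The CBFB table averaged 6 libraries (CBFB KO and CBFB WT), the KO1 table averaged 8 (RUNX1 KO1 and RUNX1 WT) and the KO2 table averaged 8 (RUNX1 KO2 and the same RUNX1 WT). The means summed to 20214423 in the CBFB table, 18050386 for KO1 and 16467400 for KO2. A mean of this kind gives no direction between knockout and WT and no spread between replicates, so no value below has a p-value, and the errors given cover the counting of reads only. For the same reason the knocked-out genes could not serve as a check of the labels: the mean of CBFB was 897, 1058 and 931 in the CBFB, KO1 and KO2 tables, respectively, and that of RUNX1 was 1606, 922 and 839. Of the 6 basal mammary markers, all were listed in the CBFB and KO1 tables and 5 in the KO2 table, where KRT14 was not listed, and their means summed to between 145665 and 195424. Of the 6 luminal hormone-receptor markers, 5 were listed in each table, and PGR in none. Their means summed to 20923, 21696 and 25298 in the CBFB, KO1 and KO2 tables, most of it KRT18 and AREG, while ESR1 lay between 53.9 and 77.6. Endothelial markers summed to at most 8.56 and the leukocyte marker PTPRC was at 0.463 or not listed, whereas the fibroblast list summed to between 712 and 928, most of it PDGFRA and COL1A1, with COL3A1 listed in no table and COL1A2 at 0.145 in the CBFB table alone. The leukocyte list summed to between 305 and 448, nearly all of it CD14 and CD68.

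The adherens junction was carried by E- and P-cadherin with all 3 catenins. CTNNA1, which encodes the α-catenin that couples cadherins to actin, led the set, at means of 14911, 12397 and 11186 in the CBFB, KO1 and KO2 tables, respectively. CTNNB1 (β-catenin) had means of 7992, 6957 and 5950 in the same order, and CTNND1 (p120-catenin, which keeps cadherins at the membrane) had 7110, 5611 and 4721. Divided by transcript length, the catenins had this same order in every table. Among cadherins, CDH3 (P-cadherin) had means of 6254, 6733 and 5895, and CDH1 (E-cadherin) had 3351, 3941 and 3796. CDH13 (T-cadherin, anchored in the membrane by a lipid) had 561, 316 and 290, CDH2 (N-cadherin) 214, 84.8 and 71.8, and CDH4 (R-cadherin) 164, 147 and 140. Per length, P-cadherin was above E-cadherin and both were far above N-cadherin in each table. The nectin NECTIN1 had 3849, 2788 and 2476, and NECTIN4 had 76.0, 289 and 356.

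Desmosome genes showed a strong contrast between isoforms. Of the desmosomal cadherins, DSG2 (desmoglein 2, found in most epithelia) had means of 8476, 5002 and 4022 in the CBFB, KO1 and KO2 tables, and DSG3 (desmoglein 3, of basal stratified epithelium) had 1957, 2629 and 2419. The desmocollins DSC2, at 705, 1023 and 871, and DSC3, at 776, 1152 and 928, stood below both, per length as well. DSG1 and DSC1, the isoforms of the upper epidermis, were close to the limit of counting, with DSG1 at 0.54, 2.20 and 0.74 and DSC1 at 1.70, 2.45 and 1.73. The plaque protein JUP (plakoglobin) had 6633, 8777 and 8979, and DSP (desmoplakin, the keratin anchor) had 11810, 7506 and 6113. PERP, a small membrane protein of desmosomes and a p53 target, had 8826, 12162 and 11357 and was the highest desmosome gene per length in every table. Among the plakophilins PKP3 had 4075, 4804 and 4874, while PKP1 had 3.95, 23.2 and 10.4. PKP2 lay between 1045 and 1536, PKP4 between 1571 and 2144 and the plakin EVPL (envoplakin) between 1474 and 1570 over the tables. PPL (periplakin, a partner of envoplakin) had 313, 1038 and 1127.

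Claudins ranged from CLDN7 down to members that were hardly counted. CLDN7 had means of 2206, 4422 and 5180 in the CBFB, KO1 and KO2 tables. CLDN4 followed with 593, 1288 and 1589, CLDN12 with 1039, 665 and 571, and CLDN1 with 201, 835 and 926. CLDN23 had 31.0, 44.0 and 45.2, CLDN3 0.41, 0.85 and 1.68, and CLDN8 was not listed in the CBFB table and had 0.25 and 0.23 in the others. Per length CLDN7 was the highest claudin in all 3 tables, and the order of CLDN4, CLDN12 and CLDN1 below it was not the same in each.

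The cytoplasmic scaffold TJP1 (ZO-1) had 2497, 1826 and 1543 in the CBFB, KO1 and KO2 tables, and its relative TJP3 (ZO-3) had 5.93, 25.5 and 36.5. CGN (cingulin, which binds ZO proteins and myosin) had 235, 526 and 493. OCLN (occludin) had 81.4, 249 and 253, and its relatives MARVELD2 (tricellulin, of the corners where 3 cells meet) and MARVELD3 lay between 218 and 267 and between 474.5 and 512. The adhesion protein F11R (JAM-A) had 4352, 4245 and 3952, and EPCAM, which binds claudin-7, had 2981, 2249 and 2131. The apical polarity protein CRB3 had 229, 306 and 368.

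**Figure D1:**
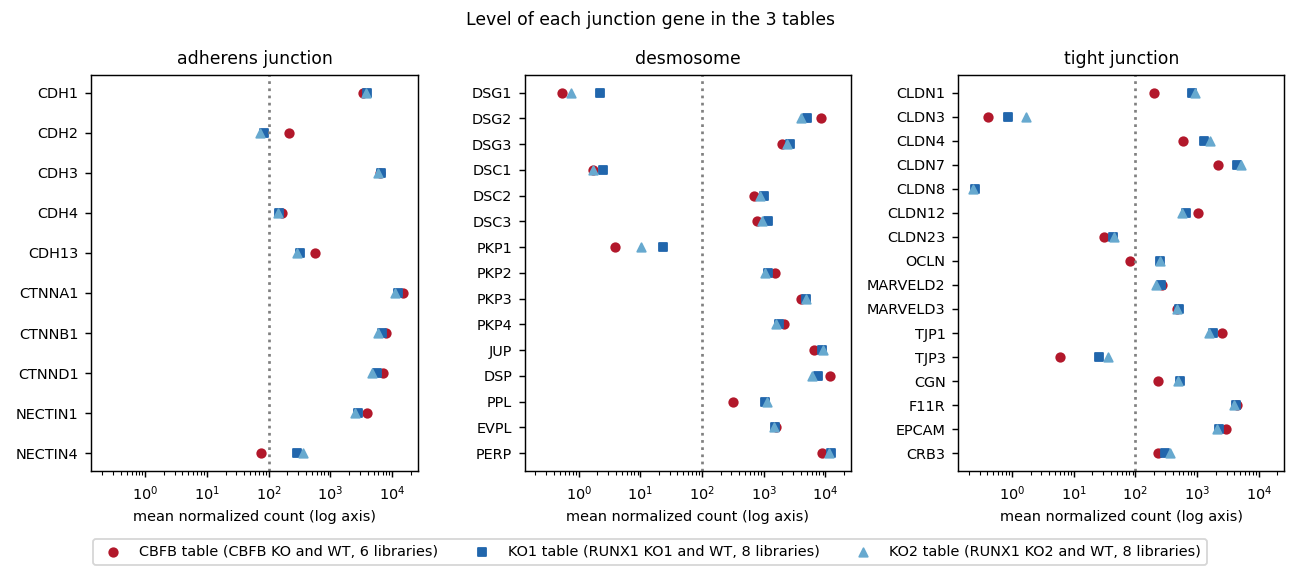
Mean normalized count of each of the 41 genes (x axis, log scale) in the CBFB table (circles, 6 libraries), the KO1 table (squares, 8 libraries) and the KO2 table (triangles, 8 libraries), each point a mean over knockout and WT libraries with no spread between replicates known; the dotted line marks a mean of 100. Of the 41 genes, 31 lie right of the line in all 3 tables, and DSG1, DSC1, CLDN3 and CLDN8 lie under 10 in every table that lists them.

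Of the 41 genes, 31 had a mean of at least 100 in all 3 tables, 8 of 10 for adherens junctions, 12 of 15 for desmosomes and 11 of 16 for tight junctions. A mean of at least 1000 in all tables was reached by 6, 9 and 4 genes of the same types. Long transcripts yield more reads, so levels of different genes were compared only after division by the length of the longest annotated transcript and scaling of all genes of a table to the same total. On this per-length scale, averaged over the 3 tables, the first 5 adherens junction genes were CTNNA1 (459), CTNNB1 (195), CDH3 (176), CTNND1 (121) and CDH1 (105). PERP (348), JUP (323), PKP3 (226), DSG2 (135) and DSP (117) led the desmosome genes. CLDN7 (287), EPCAM (195), F11R (119), CLDN4 (39.1) and TJP1 (33.5) led the genes listed under tight junctions. EPCAM was counted among these as a membrane protein that binds claudin-7. DSP, which was near the top of the desmosome genes in counts, came last of these 5 per length, with a longest transcript of 9796 bases.

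Of the summed per-length level of the 41 genes, adherens junction genes held 39.1%, 33.6% and 31.4% in the CBFB, KO1 and KO2 tables, respectively. The desmosome share was 39.96%, 41.9% and 41.6%, and the tight junction share was 20.97%, 24.5% and 27.0%. Tight junction genes had the smallest share in every table, and their share was lowest in the CBFB table. That lowest share rested largely on CLDN7, whose per-length level was 148, 305 and 409 in the CBFB, KO1 and KO2 tables. EPCAM, counted in the same type, went the other way, at 224, 173 and 188. The order of adherens junction and desmosome genes rested on the choice of length: with the median length of a gene's transcripts the adherens junction share was the larger in all 3 tables, at 55.2%, 49.2% and 46.6%.

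To compare tables, the log2 ratio of the means was centred on the median over all genes that reached a mean of 100 in both, since that median stood at 0.23 for the CBFB over the KO1 table and at 0.35 for the CBFB over the KO2 table before centring. The KO1 and KO2 tables share their RUNX1 WT libraries in equal number, so a difference between their means lies in the RUNX1 KO libraries apart from scaling. The fold between the RUNX1 KO2 and RUNX1 KO1 libraries is then at least as far from 1 as the ratio of the means. The clone and any other difference between these libraries cannot be told apart in it. None of the 33 junction genes that reached 100 on both sides passed a ratio of 1.5, where 0.147% of all 10174 genes were higher and 0.0688% lower in the KO2 table. Past the lower ratio of 5 to 4, a total of 4 of the 33 were higher in the KO2 table and 0 were lower, where 5.36% of all genes were higher and 0.423% lower. These calls rested on the centring: on the deposited scale none of the 4 passed, with log2 ratios from 0.23 for CLDN7 to 0.30 for CLDN4.

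The 4 genes were 3 of tight junctions and a nectin. CLDN4 had a log2 ratio of 0.41 with a counting error (SE) of 0.02, which corresponds to a mean 838 normalized reads higher in RUNX1 KO2 than in RUNX1 KO1 if WT is the same in both tables. Counting errors of this ratio treat the KO2 and KO1 means as independent, although both hold the same RUNX1 WT libraries. CLDN7 had 0.33 (counting SE 0.01), or 2287 reads, and CRB3 had 0.37 (counting SE 0.04), or 179 reads. NECTIN4 had 0.41 (counting SE 0.04), or 187 reads. Across all genes this ratio had a correlation of 0.415 with GC content and of -0.486 with the logarithm of transcript length, as a description. Within classes of GC content and length CLDN7 came to 0.09 and CRB3 to 0.13, no longer past 5 to 4, while CLDN4 and NECTIN4 both stood at 0.36. CLDN1 followed at 0.25 and PPL at 0.22. At the other end stood the desmosomal cadherins DSG2 and DSC3, both at -0.21, and DSP at -0.19. Within the classes DSG2 came to -0.14, DSC3 to -0.10 and DSP to -0.13. In reads after centring, RUNX1 KO2 minus RUNX1 KO1 came to -1360 for DSG2 and -1876 for DSP, whereas it was 1740 for JUP. These differences rested on the centring too: JUP had a log2 ratio of 0.14, and 0.03 on the deposited scale, where DSG2 had -0.31 and DSP -0.30. DSC2 had -0.13, and DSG3, at -0.02, turned to 0.01 when scaled by table sums and to 0.05 within the classes. All 3 catenins were below 0, under these scalings too, at -0.04 for CTNNA1, -0.12 for CTNNB1 and -0.15 for CTNND1. Medians of the types were -0.04 for adherens junction, -0.03 for desmosome and 0.02 for tight junction genes, against 0 for all genes, whose 5th and 95th percentiles were -0.18 and 0.33.

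**Figure D2:**
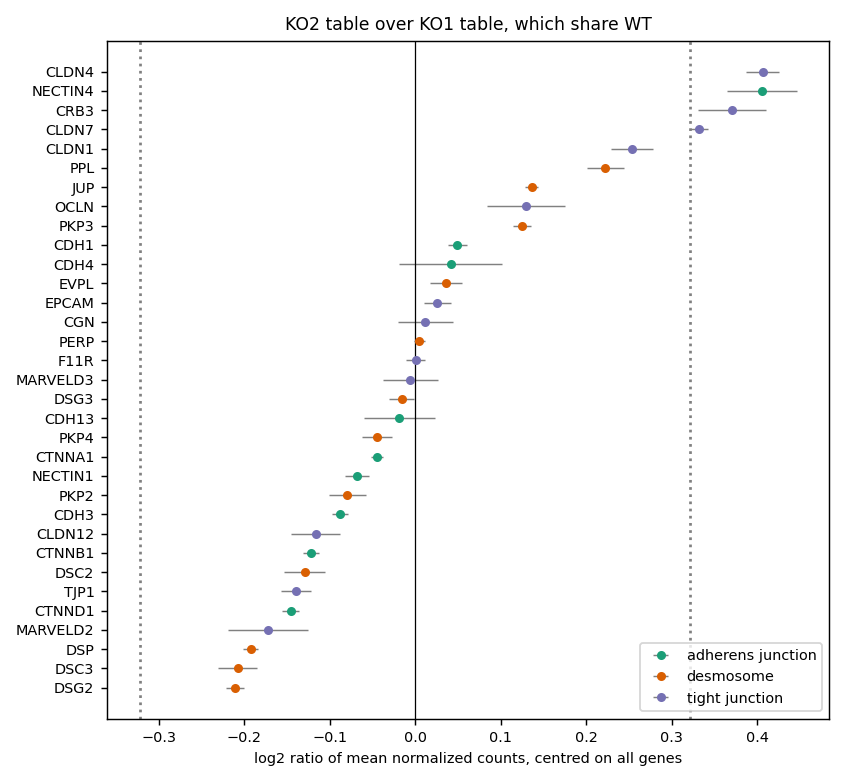
Log2 ratio of the mean in the KO2 table over that in the KO1 table (x axis, centred on all genes) for the 33 genes that reached a mean of 100 in both, colored by junction type, with bars of 1 counting SE that leave out the spread between replicates; dotted lines mark a ratio of 5 to 4. CLDN4, NECTIN4, CRB3 and CLDN7 lie right of the upper line, and no gene lies left of the lower one.

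Between the CBFB experiment and the RUNX1 experiment, 6 desmosome and 5 tight junction genes were lower in the CBFB table than in either RUNX1 table by a ratio of 1.5 or more. None of the adherens junction genes compared passed that ratio in this direction, and CDH1 came closest. Each experiment had its own WT libraries, so these ratios hold the experiment and the genotype together, which cannot be told apart. Over the KO1 table, 11 of 31 junction genes (35.5%) were lower in the CBFB table by a ratio of 1.5 or more, where 4.22% of all 10531 genes were, and 1 was higher, where 6.70% were. None of the 8 adherens junction genes was lower, against 6 of 12 desmosome genes and 5 of 11 tight junction genes. Each gene was counted under a single type, and JUP, among the lower genes, was counted under desmosomes only. NECTIN4 and CDH2, with a mean below 100 in a table, were outside these counts and went opposite ways. NECTIN4 was 4.45-fold lower in the CBFB table than in the KO1 table and 5.95-fold lower than in the KO2 table. CDH2 was higher, with log2 ratios of 1.10 and 1.23. Over the KO2 table, 12 of 31 (38.7%) were lower, where 11.4% of all 10064 genes were, and 3 were higher, where 10.4% were. The lower genes were 0 of 8, 7 of 12 and 5 of 11 by type. Both ratios use the CBFB table and both RUNX1 tables hold the same WT libraries, so they are not independent of each other. The members were chosen with earlier results of these data known, so the shares of lower members do not stand for junction genes at large. Of 14 other junction genes compared, 1 was lower over the KO1 table and 3 over the KO2 table, with 1 higher in each. On the deposited scale, without centring, 5 genes were lower over the KO1 table and 6 over the KO2 table, and 4 and 7 were higher. Type medians were 0.00, -0.55 and -0.33 over the KO1 table and 0.07, -0.60 and -0.34 over the KO2 table for adherens junction, desmosome and tight junction genes.

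Among the 11 tight junction genes compared CLDN1 differed most, with a mean in the CBFB table that was 4.86-fold lower than in the KO1 table and 5.85-fold lower than in the KO2 table after centring. The log2 ratios were -2.28 and -2.55 with counting SEs of 0.05 and 0.04. CLDN4 was 2.55-fold and 3.40-fold lower, CLDN7 was 2.35-fold and 2.98-fold lower, and CGN was 2.63-fold and 2.67-fold lower. CRB3 had log2 ratios of -0.65 and -1.03. CLDN12 was the one expressed claudin on the other side, with log2 ratios of 0.41 and 0.52, short of the ratio of 1.5. EPCAM (0.18 and 0.14) was also above 0, and so was TJP1 (0.22 and 0.35), which came to -0.14 and -0.09 within classes of GC content and length. F11R had -0.19 and -0.21, and 0.04 and 0.14 on the deposited scale. OCLN, whose mean in the CBFB table was below 100 and so outside the counts above, was 3.58-fold and 3.95-fold lower there. TJP3, under 100 in all tables, was 5.05-fold and 7.82-fold lower, with a counting SE of 0.26 on the log2 scale in each.

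In the desmosome the isoforms divided. DSG3 was lower in the CBFB table at log2 ratios of -0.66 over KO1 and -0.65 over KO2, DSC2 at -0.77 and -0.65, and DSC3 at -0.80 and -0.60. DSG2 was on the other side, at 0.53 and 0.73. The plaque divided too: JUP stood at -0.63 and -0.78 and PKP3 at -0.47 and -0.60, whereas DSP stood at 0.42 and 0.60. PERP had -0.69 and -0.71. PPL had the lowest ratios of the desmosome genes past the minimum, at 3.89-fold and 4.58-fold lower in the CBFB table, while its partner EVPL had log2 ratios of -0.21 and -0.25, and 0.02 and 0.09 on the deposited scale. PKP1, at a mean under 100 in all tables, had -2.78 and -1.73 with counting SEs of 0.31 and 0.34, and was also the member that differed most between KO2 and KO1 among those that reached 10 on both sides, at -1.06 (counting SE 0.19).

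CTNNA1 had log2 ratios of 0.04 and 0.07 over the KO1 and KO2 tables, CTNNB1 -0.03 and 0.08, and CTNND1 0.11 and 0.25. Within classes of GC content and length, CTNNB1 came to -0.26 and -0.22 and CTNND1 to -0.15 and -0.09, a change of sign for CTNND1 and, over the KO2 table, for CTNNB1. CDH1 had -0.46 and -0.53, CDH3 -0.34 and -0.26, and CDH4 -0.07 and -0.13. CDH13 was the only adherens junction gene past a ratio of 1.5 among the 8, at 0.60 in both. NECTIN1 had 0.24 and 0.29. The members under the minimum of 100 in a table went further: CDH2 had 1.10 and 1.23, and NECTIN4 was 4.45-fold and 5.95-fold lower in the CBFB table. Counting errors of the 31 genes ran from 0.007 for CTNNA1 to 0.063 for CDH4 on the log2 scale and were small beside most of the ratios. They were not small for CDH4, at -0.07 (counting SE 0.06) over KO1 and -0.13 (counting SE 0.06) over KO2. Nor were they for MARVELD2 over KO2, at -0.05 (counting SE 0.05). The spread between replicates is not known.

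**Figure D3:**
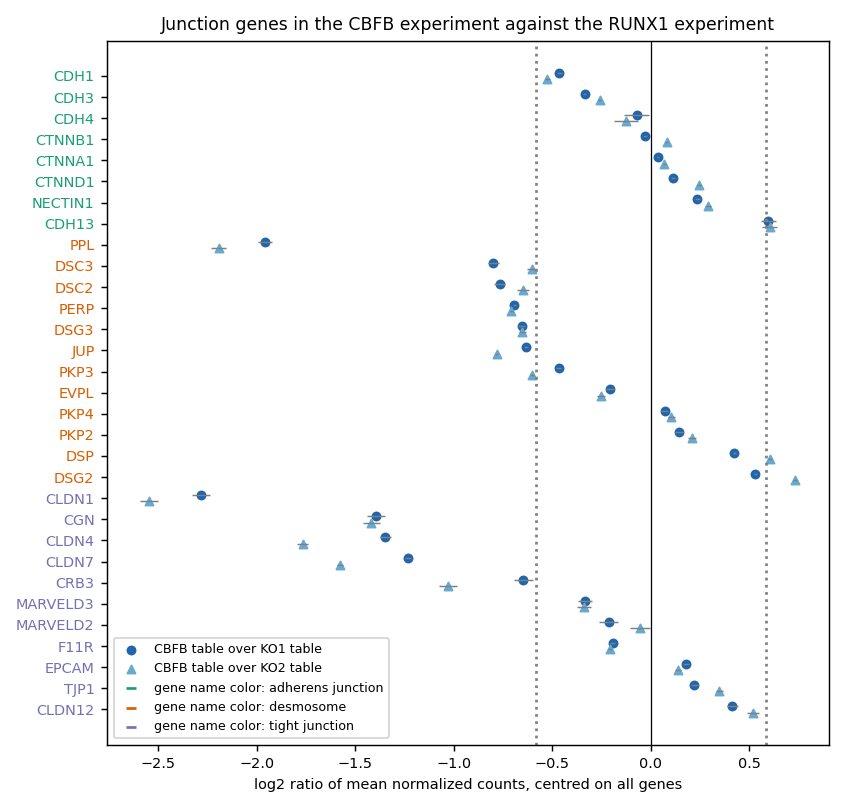
Log2 ratio of the mean in the CBFB table over that in the KO1 table (circles) and the KO2 table (triangles), centred on all genes, for the 31 genes that reached a mean of 100 in all tables, with gene names colored by junction type and bars of 1 counting SE; dotted lines mark a ratio of 1.5. CLDN1 and PPL lie farthest left, and the 8 adherens junction genes all lie right of the lower line.

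Base composition and transcript length moved with these ratios across all genes. Over 10446 genes the log2 ratio of the CBFB over the KO1 table had a correlation of -0.466 with the GC content of the longest transcript and of 0.501 with the logarithm of its length, as a description over genes of the same libraries. Median ratios went from 0.26 in the lowest of 5 classes of GC content to -0.22 in the highest. The 11 lower junction genes had a median GC content of 56.1%, and the 20 others 47.3%. After centring within classes of GC content and length, which was added after the data were seen, 9 of the 12 genes past the ratio of 1.5 over the KO1 table and 9 of the 15 over the KO2 table were still past it, and CDH1 moved past it over the KO2 table, at -0.69, with -0.58 over KO1, just short of it. The absence of lower genes among the adherens junction genes compared therefore did not hold for E-cadherin over KO2 under this centring. CDH13 went to 0.24 and 0.16, JUP to -0.49 and -0.57, CRB3 to -0.28 and -0.46, DSG2 to 0.30 and 0.43, and DSP to 0.16 and 0.27. PKP3 went to -0.23 and -0.21, and CLDN7 to -0.87 and -1.01, still past the ratio. PPL, at -2.00 and -2.25, and CLDN1, at -2.38 and -2.70, kept about the same ratios, and DSC2 (-1.19 and -1.16) and DSC3 (-1.22 and -1.11), whose GC content is under 40%, went further from 0. The part of base composition in the ratios was not tested beyond this centring. Basal markers did not move one way: over the KO1 and KO2 tables, KRT17 had log2 ratios of -2.42 and -3.05 and KRT5 -0.44 and -0.46, whereas TP63 had 0.52 and 0.79, ITGB4 0.14 and 0.25, and LAMB3 -0.09 and -0.06. KRT14 had -1.44 over the KO1 table. Luminal markers did not move one way either. KRT18 had log2 ratios of -0.15 and -0.65, AREG -0.59 and -0.58 and GATA3 -0.49 and -0.67, whereas ESR1 had 0.15 and 0.18 and FOXA1 0.02 and 0.04. The part of these markers in the ratios of junction genes was not tested.

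**Figure D4:**
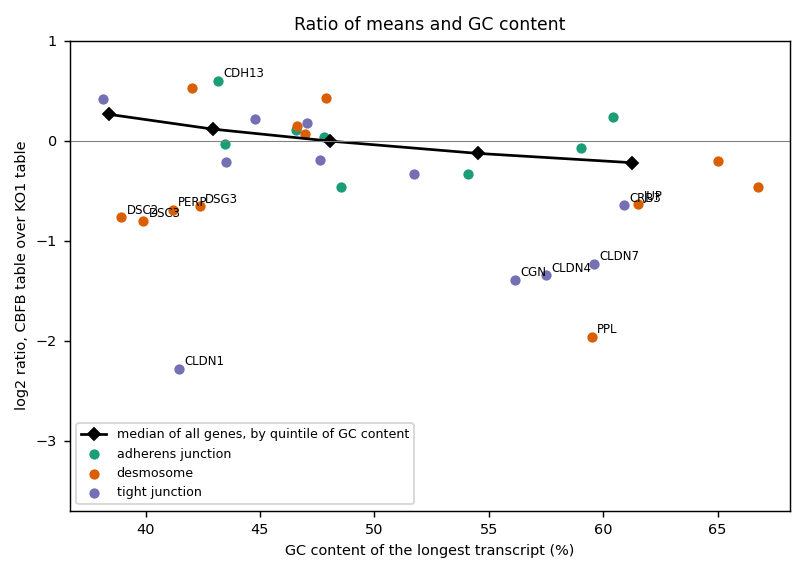
Log2 ratio of the mean in the CBFB table over that in the KO1 table (y axis) against the GC content of the longest transcript (x axis) for 31 junction genes, colored by type and named where past a ratio of 1.5; black diamonds join the medians of all genes in 5 classes of GC content. CLDN1, DSC2, DSC3, DSG3 and PERP lie below the line at low GC content, and CLDN4, CLDN7, CGN, CRB3, JUP and PPL lie below it at high GC content.

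Other junction genes were read from a separate list of relatives and partners, of which 40 were listed in a table, 14 had a mean of at least 100 in all tables and 20 stayed under 10. Among those with a mean of at least 1000 in all tables were VCL (vinculin, which joins α-catenin to actin), with 5223, 3947 and 3278 in the CBFB, KO1 and KO2 tables, AFDN (afadin, the nectin partner, listed as MLLT4), with 2481, 1631 and 1411, and LSR (of tricellular tight junctions), with 1999, 2263 and 2423. Over the KO1 table, the count was 1 of the 14 higher and 1 lower in the CBFB table by a ratio of 1.5, and over the KO2 table it was 1 higher and 3 lower. None of the 14 passed this ratio between the KO2 and KO1 tables. Their medians were 0.14, 0.21 and -0.06 for the CBFB over KO1, CBFB over KO2 and KO2 over KO1 ratios. No test of the difference between this list and the 41 genes was made.

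Promoters were read for the letters TGTGGT, a form of the core that RUNX proteins bind, or ACCACA on the other strand. Other forms of the core were not searched. Of the 41 genes, 27 had a RefSeq promoter (GRCh38.p14, 250 bases before to 50 after the start), and 4 of them (14.8%) held the letters, as did 15.6% of 27305 genes with a promoter. The 4 sites are printed in capitals within their surroundings, on the plus strand, because they show where this form of the core lies near the start of a junction gene.
TJP3, chr19:3708362-3708391: tctccctgtgtcTGTGGTcgtcagttccac
OCLN, chr5:69492537-69492566: ggaggccgacacACCACAcctacactcccg
CTNNA1, chr5:138875344-138875373: ttatgtgctgcgACCACAcagaactgtata
MARVELD2, chr5:69414957-69414986: aagagcccagtgTGTGGTcattgccgcgac
The TJP3 promoter held the letters again, as ACCACA, at chr19:3708407-3708433. A match shows the letters only and is no evidence of binding, and no match says only that the letters are not in this window.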

How the data were processed

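RNA-seq of 18 libraries in 5 groups was used through 3 deposited tables. Their measurement column is a signal, the mean of read counts divided by size factors over the knockout and WT libraries of a table, made by the authors with DESeq2. Submitters' processing notes name Trimmomatic, STAR and build hg19, without versions. Read counter and annotation are not given in the sources used here. The labels name an mRNA kit, whereas the methods describe removal of ribosomal RNA. The 5 further columns of each table hold the authors' own comparison of knockout with WT (fold change, its error, statistic, p-value and adjusted p-value) and were not used, so no test could be made. The number of columns with per-sample values was 0. Depth per library is not given. Size factors worked out from values of single reads ran from 0.657 to 1.18 in the CBFB table, 0.921 to 1.10 in the KO1 table and 0.562 to 1.29 in the KO2 table.

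Tables were joined by Entrez identifier. Length and GC content were those of the longest GENCODE 29 transcript, matched for 97.2% to 97.4% of genes. Ratios were computed in Python 3.11.15 with pandas 2.3.3 and numpy 2.4.6 for genes reaching a mean of 100 on both sides, called past a ratio of 1.5 and tested on simulated data. The simulated reads held Poisson counting only, without spread between replicates or a trend with GC content or length, so they do not show how reliable the calls are here. Counting errors assume Poisson counts at these means and independent tables, which the KO1 and KO2 tables, with shared WT libraries, are not. Named genes were the 5 highest per length of each type, those past the ratio, those under a mean of 10 or listed in fewer than 3 tables, and whole role classes where compared. Members and lists were chosen with earlier results of these data known. Reads of 8 members could be shared with an annotated pseudogene of the same name (CTNNA1, PKP2, PKP4, PERP, CLDN7, OCLN, TJP1 and CRB3). Alternatives were other lengths, minimums, scalings and ratios. Some of the other junction genes with high means are not reported here by name.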

Additional observations from a re-analysis of the deposited data

How the results depend on the processing

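No paired analysis was possible because the tables hold no column per sample, and for the same reason no replicate could be left out. Shares of adherens junction, desmosome and tight junction genes with the median transcript length were 55.2%, 28.2% and 16.7% in the CBFB table, 49.2%, 31.1% and 19.7% in the KO1 table and 46.6%, 32.0% and 21.4% in the KO2 table. Without division by length they were 41.0%, 45.0% and 14.0%, then 37.3%, 46.1% and 16.6%, then 35.8%, 46.0% and 18.2%. With a minimum mean of 1000, 4 tight junction genes remained of 11. For KO2 over KO1 the count past the ratio went from 0 to 1 higher and 1 lower with a minimum of 10, to 2 and 2 with no minimum, and to 4 higher with a ratio of 5 to 4. For CBFB over KO1, 1 higher became 2 when scaled by table sums, 4 as deposited, 2 with a minimum of 10, 2 with none, 4 with a ratio of 5 to 4 and 0 within classes of GC content and length. The 11 lower became 5 as deposited and 19 with no minimum. For CBFB over KO2, 3 higher became 7 as deposited, 5 with a ratio of 5 to 4 and 0 within the classes. The 12 lower became 6 as deposited and 19 with no minimum. All 12 and 15 genes past the ratio over KO1 and KO2 had the same sign scaled by table sums, as deposited and within the classes. Scaling by table sums left 10 and 13 past the ratio and the deposited values 6 and 9. Depth limits DSG1, DSC1, CLDN3 and CLDN8, which have few reads.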

Other observations

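Claudins outside the 41 genes that were counted at a few reads a library were mostly higher in the CBFB table. CLDN10 had a mean of 7.88 there against 1.24 for KO1 and 0.81 for KO2. CLDN20 had 4.38 against 0.25 and 0.31, and CLDN18 had 3.20 against 0.23 and 0.33. CLDN14, at 0.65 against 1.57 and 1.29, and CLDN9, at 1.32 against 1.72 and 2.55, were lower in it. These genes were picked after their values were seen, and which libraries hold the reads is not known.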
